A study of Mus musculus with 12 samples.

Results

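Malat1, Neat1, Miat, Kcnq1ot1, Meg3, Rian and Mirg are long non-coding RNAs (lncRNAs) known for staying in the nucleus or for coming from imprinted chromosome regions. These 7 genes were picked by name in the deposited gene table and joined by Ensembl identifier to the count table of 55573 genes. All 7 were of type lncRNA, a type carried by 862 genes of the deposited gene table. All 7 passed the filter on low counts, as did the other 855 of that type, and were among the 17126 genes tested.

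Hippocampal neurons of newborn C57BL/6 pups, grown for 14 days in primary culture, gave the libraries, with pups of both sexes pooled by litter and Ara-C added against dividing glia. Input libraries held total RNA of the lysate, and in RNA immunoprecipitation (RIP) libraries the RNA came off beads carrying an antibody to endogenous YTHDF1, YTHDF2 or YTHDF3, with 3 replicates in each of the 4 groups. The lysate of each replicate was divided among the 3 antibodies, and RNA brought down by a control antibody was not analysed here. The question was which of these RNAs came down with each YTHDF protein, and whether the 3 proteins differed. Malat1, Miat, Neat1, Meg3 and Mirg were lower in the YTHDF1 than in the YTHDF2 RIP. Miat and Mirg rose above Input with YTHDF2, the Mirg call being lost without Input replicate 2 or 3. Malat1 rose there too, by a call that most fits with a library left out did not keep. Rian rose above Input with YTHDF3, a call lost once a trend on exon length was removed.

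YTHDF1, YTHDF2 and YTHDF3 read N6-methyladenosine (m6A), a methyl mark on adenosine, and are found mainly in the cytoplasm, whereas YTHDC1 is the reader of the nucleus. Malat1 is an abundant RNA of nuclear speckles that carries m6A, Neat1 is the scaffold of paraspeckles, and Miat (Gomafu) is a nuclear RNA of neurons. Kcnq1ot1 is read antisense to Kcnq1 from the paternal allele and silences neighbouring genes. Meg3, Rian and Mirg are transcribed from the maternal allele of the Dlk1-Dio3 region, where Rian hosts C/D box snoRNAs and Mirg hosts a cluster of microRNAs.

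m6A is most often placed in sequences such as GGACT, so that motif was searched on the transcript strand of the longest annotated transcript of every gene tested. For each lncRNA the 30 bases around a match are shown, with GGACT in capitals, to place the genes and let their sequences be compared.
Malat1 at chr19:5801547-5801576, minus strand: atcaaagctactaGGACTgaagtaaaaagt
Neat1 at chr19:5845116-5845145, minus strand: gatggagacgggtGGACTgggggcccttga
Miat at chr5:112229144-112229173, minus strand: gccgccctgaccaGGACTcttcctaacaga
Kcnq1ot1 at chr7:143286383-143286412, minus strand: ctatcgGGACTagccattcgGGACTtctga
Meg3 at chr12:109546321-109546350, plus strand: ccagttcctctcgGGACTcctggctccact
Rian at chr12:109650644-109650673, plus strand: gtagggaagaggaGGACTgatgttggatca
Mirg at chr12:109734260-109734289, plus strand: gggatatgtcaatGGACTtgatggctgtgc
These sequences are from the GENCODE annotation of GRCm38 (mm10), and all lie in exons. GGACT occurred at least once in 85.5% of genes with a sequence, so a match alone distinguishes no gene. Its density ran from 0.247 per kb in Rian, with 2 matches in 8089 bases, to 2.07 per kb in Miat, with 19 matches in 9163 bases. The median was 0.976 per kb over all genes and 0.945 per kb over lncRNAs, and 15.6% of genes lay below Rian against 90.5% below Miat. Malat1 had 1.29 matches per kb, Mirg 1.57, Neat1 1.11, Meg3 1.1 and Kcnq1ot1 0.859. A match is a description of the letters, not a methylated site.

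Total counts were between 6020072 and 38909592 per library, and the deepest and shallowest were YTHDF1 RIP replicate 3 and YTHDF2 RIP replicate 2. Values per library are given as CPM (counts-per-million) after scaling by the trimmed mean of M values (TMM). Before that scaling, neuronal markers (9 genes) summed to 2869 to 4104 CPM in Input and 2142 to 7227 CPM in the RIPs, and the 6 astrocyte markers to 1014 to 3540 CPM in Input and 1026 to 3445 CPM in the RIPs. The 5 oligodendrocyte lineage markers summed to 55.5 to 365.5 CPM in Input and 64.0 to 1192 CPM in the RIPs, lowest in Input and YTHDF3 replicate 1 and highest in YTHDF1 replicate 1. Microglial markers summed to at most 4.38 CPM and endothelial markers to at most 2.79 CPM in any library, with P2ry12 and Cldn5 at 0 in at least 1 Input library. These are bulk cultures, in which fewer cells of a type and less RNA per cell cannot be told apart.

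In Input the 7 lncRNAs covered several orders of magnitude per kilobase of exon. Malat1 was at 1169 ± 299.6 CPM per kb (mean ± SD, n = 3, as for the others), Meg3 at 101 ± 42.5, Miat at 20.5 ± 1.74 and Rian at 10.1 ± 2.13. Mirg was at 0.939 ± 0.327 CPM per kb, Neat1 at 0.361 ± 0.193 and Kcnq1ot1, whose exon spans 93092 bases, at 0.150 ± 0.0525. In this order the Input libraries of no gene overlapped those of the next. With the length of the longest exon run in place of the merged exons, the input CPM per kilobase of Miat came to 27.2, the input CPM per kilobase of Rian to 20.6 and the input CPM per kilobase of Mirg to 3.65, and the order was the same.

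Malat1 (ENSMUSG00000092341) is a single exon on the minus strand at chr19:5795690-5802672. Normalized CPM of Malat1 were 9379, 9362 and 5746 in Input replicates 1 to 3. The YTHDF1 libraries held 1509.9, 1399 and 344, the YTHDF2 libraries 21069, 14590.4 and 27541, and the YTHDF3 libraries 3804, 2631 and 2456. Malat1 therefore lay below every Input library in the YTHDF1 and YTHDF3 RIPs and above every Input library in the YTHDF2 RIP. Such separation of 3 libraries from 3, for this and the genes below, was common. Of all genes, 27.9% lay wholly above and 28% wholly below Input with YTHDF1, 25.3% and 27.5% with YTHDF2, and 26.6% and 29.1% with YTHDF3. Between 2 RIPs these shares ran from 12.2 to 21.8%. As a share of all counts it took 0.813 ± 0.193% in Input, 0.0843 ± 0.0544% with YTHDF1, 2.18 ± 0.524% with YTHDF2 and 0.367 ± 0.0601% with YTHDF3 (mean ± SD, n = 3).

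Neat1 (ENSMUSG00000092274, chr19:5824708-5845478, minus strand) was a low-count gene, with 24 to 730 counts per library. Its normalized CPM were 4.795, 5.56 and 12.1 in Input, 7.15, 5.565 and 0.870 with YTHDF1, 23.4, 47.8 and 17.1 with YTHDF2, and 6.18, 6.96 and 24.1 with YTHDF3. Every YTHDF2 library was above every Input library, and the other RIPs overlapped Input. Replicate 3 was the highest of its group in both Input and the YTHDF3 RIP. The astrocyte markers summed to 3540 CPM in that Input library and 3445 CPM in that YTHDF3 library, also the highest of each group. Replicate 1 of these groups had 1014 and 1385 CPM. In the YTHDF1 and YTHDF2 RIPs replicate 3 was again highest for the markers (2050 and 2335 CPM) but lowest for Neat1. The part of astrocytes in the Neat1 values was not tested.

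Miat (ENSMUSG00000097767, chr5:112213228-112229395, minus strand), the neuronal nuclear RNA, stood at 208, 189 and 175 normalized CPM in Input. The YTHDF1 libraries held 103, 154 and 22.1, the YTHDF2 libraries 789, 896 and 498, and the YTHDF3 libraries 322, 290.5 and 328. The 4 groups did not overlap for this gene, in the order YTHDF1 RIP, Input, YTHDF3 RIP and YTHDF2 RIP.

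Kcnq1ot1 (ENSMUSG00000101609, chr7:143203458-143296549, minus strand) had 78 to 512 counts per library. It stood at 17.4, 16.0 and 8.35 normalized CPM in Input, 59.0, 23.0 and 11.8 with YTHDF1, 20.9, 41.4 and 53.0 with YTHDF2, and 14.5, 9.735 and 8.37 with YTHDF3. Only the YTHDF2 libraries were separate from Input, and the YTHDF1 libraries spread over a wider range than any other group of this gene.

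Of the Dlk1-Dio3 lncRNAs, Meg3 (ENSMUSG00000021268, chr12:109541001-109571726, plus strand) was the most abundant. Its normalized CPM were 2622, 1781 and 1089 in Input, 865, 758 and 217 with YTHDF1, 4258, 3501 and 3349.7 with YTHDF2, and 4567, 2966 and 1857 with YTHDF3. The YTHDF1 libraries were below all others, and the YTHDF3 libraries overlapped Input. Replicate 1 was the highest of each group.

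Rian (ENSMUSG00000097451, chr12:109603808-109661716, plus strand) stayed within a narrow range. It stood at 401, 299.8 and 271 normalized CPM in Input, 489, 425 and 458 with YTHDF1, 410.2, 409 and 390.0 with YTHDF2, and 822, 601 and 581.5 with YTHDF3. The YTHDF3 libraries were above all others, and in YTHDF1 replicate 3, the lowest library of its group for the other 6 lncRNAs, Rian was in the middle of its group.

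Mirg (ENSMUSG00000097391, chr12:109729764-109749460, plus strand) had 43 to 441 counts per library and normalized CPM of 9.59, 5.71 and 5.25 in Input, 10.3, 5.92 and 1.56 with YTHDF1, 26.1, 22.8 and 26.9 with YTHDF2, and 17.15, 11.5 and 11.1 with YTHDF3. The YTHDF2 libraries were the highest and the YTHDF3 libraries came next, without overlap, while the YTHDF1 libraries overlapped Input.

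**Figure D1:**
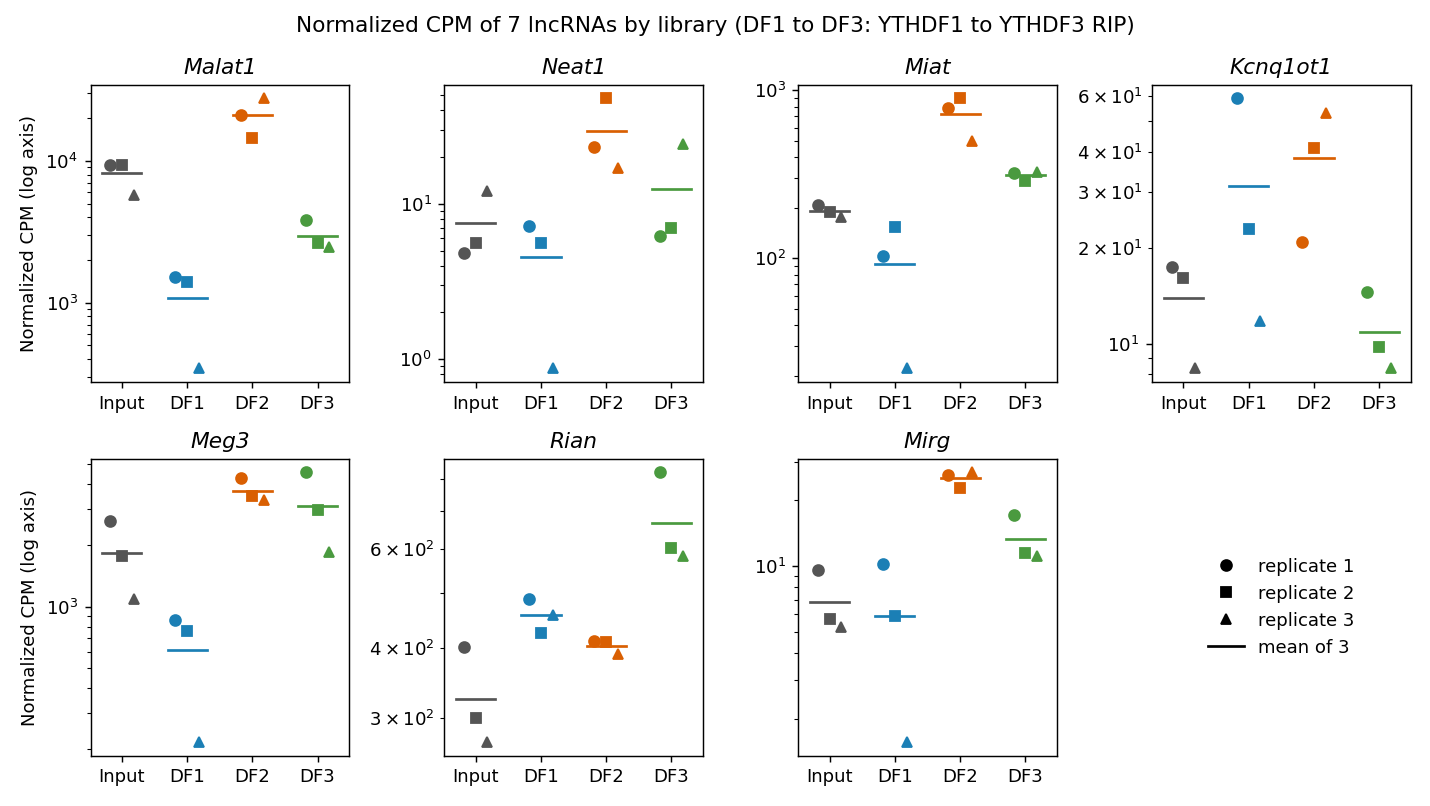
Normalized CPM (log axis, with its own range in each panel) of each lncRNA in the 12 libraries, where symbols stand for replicates 1 to 3, the line for their mean, and DF1 to DF3 for the YTHDF1 to YTHDF3 RIPs. Malat1 runs from 344 in a YTHDF1 library to 27541 in a YTHDF2 library, while Rian stays between 271 and 822.

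Malat1 and Meg3 were lower in the YTHDF1 RIP than in Input. A difference was called at an adjusted p of no more than 0.05 and a log2 fold change of at least 0.32 in size, with the quasi-likelihood test of edgeR, its p-values adjusted by Benjamini-Hochberg over 17126 genes. In the YTHDF1 RIP 2 of 7 lncRNAs were lower and 0 higher, where 25.8% of all genes were called lower and 27.2% higher. Malat1 fell by 2.91 ± 0.52 on the log2 scale (SE, adjusted p = 0.0006901), a 7.53-fold difference, and Meg3 fell by 1.58 ± 0.50 (adjusted p = 0.02016). The Meg3 call was lost without Input replicate 1 (adjusted p = 0.07691). Log2 fold changes that did not pass were -1.04 for Miat, -0.77 for Neat1, -0.26 for Mirg, 0.50 for Rian and 1.15 for Kcnq1ot1, with adjusted p between 0.05554 and 0.6878. Beside the count of 0 higher, Rian alone was higher at an unadjusted p under 0.05 in edgeR, and DESeq2 called it higher.

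Exon length moved with these YTHDF1 values. Once the trend of each library on exonic length was removed, the log2 fold changes of Kcnq1ot1 and Rian turned from 1.15 and 0.50 to -1.67 and -1.46, and 6 of 7 lncRNAs were called lower in the YTHDF1 RIP, where 24.6% of all genes were. Malat1 kept its direction and call, at -3.41. Kcnq1ot1, with 93092 exonic bases, and Rian, with 31981, were the longest of the 7. How well the trend was fitted at such lengths was not tested, here or in the comparisons below.

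In the YTHDF2 RIP 3 of 7 were higher than in Input and 0 lower, against 15.7% and 19% of all genes, and 0 were lower at an unadjusted p under 0.05 or by DESeq2. Miat rose by 1.93 ± 0.51 on the log2 scale (adjusted p = 0.01271), Mirg by 1.88 ± 0.51 (adjusted p = 0.01428) and Malat1 by 1.37 ± 0.49 (adjusted p = 0.04851). The values of Neat1 (1.98 ± 0.75, adjusted p = 0.05861), Kcnq1ot1 (1.46 ± 0.54, adjusted p = 0.05593), Meg3 (1.02 ± 0.50, adjusted p = 0.1331) and Rian (0.31 ± 0.20, adjusted p = 0.2467) did not pass. For Malat1 the call was lost in 8 of the 12 fits that left out a library (any Input or YTHDF3 library, or YTHDF2 replicate 1 or 3), with an adjusted p of up to 0.1498. It was also lost with TMM over protein-coding genes (adjusted p = 0.06814), in the fit of 2 groups with the block (0.08062) and in both length fits (0.1129 and 0.08279). For Mirg it was lost without Input replicate 2 or 3, with an adjusted p of up to 0.05631, and the Miat call held in all 12.

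Rian was the lncRNA that rose in the YTHDF3 RIP, by 1.04 ± 0.20 on the log2 scale (adjusted p = 0.001813), and Malat1 fell by 1.46 ± 0.49 (adjusted p = 0.03345). That made 1 of 7 higher and 1 lower, where 16.4% and 23% of all genes were called. The other 5 log2 fold changes were between -0.36 for Kcnq1ot1 and 0.95 for Mirg, with adjusted p between 0.1524 and 0.6196. With the length trend removed, the value of Rian was 0.14 and no longer passed (adjusted p = 0.6228). The Malat1 call was lost without Input replicate 1 or 2 or YTHDF3 replicate 2 or 3, with an adjusted p of up to 0.1074.

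Input and YTHDF3 libraries of the same replicate number deviated together. A fit of those 2 groups alone with the replicate number as a block called 5 of 7 higher, namely Rian (1.1 ± 0.10), Mirg (1.00 ± 0.14), Meg3 (0.83 ± 0.11), Miat (0.78 ± 0.10) and Neat1 (0.69 ± 0.16), with adjusted p of at most 0.0004278. That fit called many more genes of every kind, with 36.3% of all genes higher and 32.2% lower. Malat1 was lower in it by the same rule (-1.39 ± 0.14, adjusted p = 3.55e-09). With the block in the fit of all 12 libraries the calls were those without it, Rian higher and Malat1 lower.

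**Figure D2:**
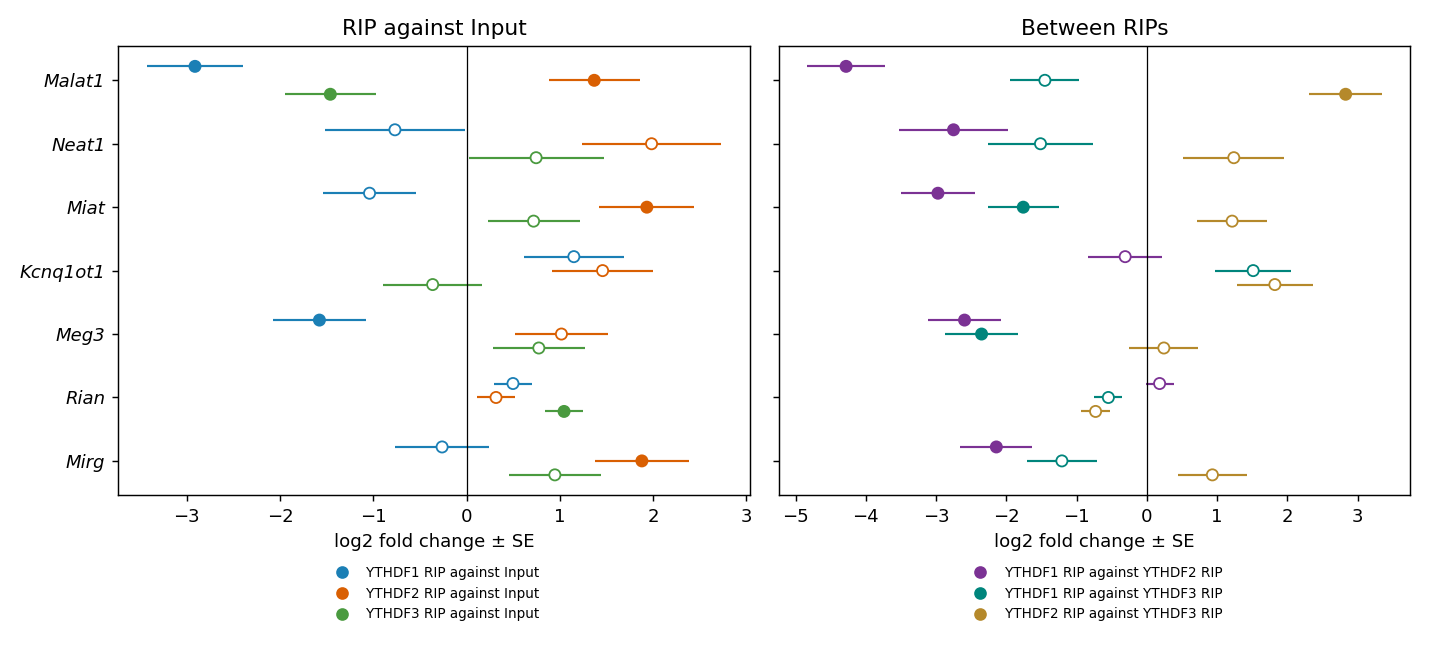
Log2 fold changes of the 7 lncRNAs (points, with the SE as bars) against Input on the left and between RIPs on the right, with filled points where the difference was called. Malat1 is called in all 3 comparisons with Input, at -2.91, 1.37 and -1.46, and Kcnq1ot1 in no comparison.

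Compared directly, the YTHDF1 RIP held less of most of these RNAs than the YTHDF2 RIP. A difference between RIPs needed a fold of 2 or more. By that rule 5 of 7 were lower in the YTHDF1 RIP and 0 higher, where 6.1% of all genes were called lower and 11.4% higher. Malat1 fell by 4.28 ± 0.55 on the log2 scale (adjusted p = 0.0002301), a 19.4-fold difference, and 0.134% of all genes had a lower log2 fold change. Miat fell by 2.97 ± 0.53 (adjusted p = 0.001712), Neat1 by 2.75 ± 0.77 (adjusted p = 0.02131), Meg3 by 2.59 ± 0.52 (adjusted p = 0.003471) and Mirg by 2.14 ± 0.51 (adjusted p = 0.009418). The values of Kcnq1ot1 (-0.31 ± 0.53, adjusted p = 0.7176) and Rian (0.18 ± 0.20, adjusted p = 0.5572) did not pass, and 0 of 7 were higher at an unadjusted p under 0.05 or by DESeq2. With the length trend removed both were called lower, Kcnq1ot1 at -2.34 (adjusted p = 0.00915) and Rian at -1.16 (adjusted p = 0.001872), which made 7 of 7 where 7.35% of all genes were lower. The Neat1 call was lost without YTHDF2 replicate 2 (adjusted p = 0.08461), and the other 4 calls held in every fit that left out a library.

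Against the YTHDF3 RIP, 2 of 7 were lower in the YTHDF1 RIP and 0 higher, where 3.63% and 10.8% of all genes were called. Meg3 fell by 2.35 ± 0.52 on the log2 scale (adjusted p = 0.007731), a 5.11-fold difference, and Miat fell by 1.76 ± 0.51 (adjusted p = 0.02835). Malat1 was at -1.45 ± 0.49 (adjusted p = 0.0546), Kcnq1ot1 at 1.51 ± 0.54 (adjusted p = 0.06575) and Rian at -0.55 ± 0.20 (adjusted p = 0.07298). Kcnq1ot1 had an unadjusted p of 0.01619 and was called higher by DESeq2. Malat1 was called lower by DESeq2 (adjusted p = 0.006873) and in 8 of the 11 alternatives that kept all libraries. The Miat call was lost without YTHDF1 replicate 1 or any YTHDF3 replicate, with an adjusted p of up to 0.06817.

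Malat1 was higher in the YTHDF2 than in the YTHDF3 RIP, by 2.83 ± 0.51 on the log2 scale (adjusted p = 0.01085), a 7.11-fold difference. It was 1 of 7 called higher and 0 were called lower, where 3.95% and 1.16% of all genes were called. Rian had an adjusted p of 0.04819 at a log2 fold change of -0.73 ± 0.20, short of the fold of 2, and was the count of 1 lower at an unadjusted p under 0.05, with 0 lower by DESeq2. Log2 fold changes of Neat1, Miat, Kcnq1ot1, Meg3 and Mirg were between 0.24 and 1.82 and did not pass. The Malat1 call was lost without YTHDF3 replicate 2 or 3, with an adjusted p of up to 0.06709.

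A test of the 3 RIP groups together found differences in 6 of 7 lncRNAs, against 32.3% of all genes. The adjusted p was 0.0002375 for Malat1, 0.004072 for Miat, 0.007188 for Meg3, 0.02086 for Mirg, 0.03183 for Rian and 0.0419 for Neat1. Kcnq1ot1 missed the threshold (adjusted p = 0.0518). The RIPs of a replicate share a lysate, and with the replicate number as a block Neat1 was lost (adjusted p = 0.07539) and Kcnq1ot1 passed (0.04686). Same-numbered libraries of the YTHDF1 or YTHDF2 RIP and the YTHDF3 RIP did not all deviate together, so whether this block follows the lysates is not known. With a library left out, Neat1 was lost in 6 of 12 fits (Input replicate 2, YTHDF1 replicate 2 or 3, YTHDF2 replicate 1 or 2, or YTHDF3 replicate 2, adjusted p of up to 0.1406). Rian was lost in 4 (any YTHDF2 replicate or YTHDF3 replicate 1, up to 0.1424) and Mirg in 2 (YTHDF2 replicate 1 or 3, up to 0.05432). The comparisons of the RIPs with Input share the same Input libraries, and those between RIPs share RIP libraries, so their counts are not independent of each other.

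The lncRNAs were also set against Meg3 within each library, as the log2 ratio of counts per kilobase, which needs no scaling between libraries. Malat1 exceeded Meg3 by 3.21 to 3.77 in Input and by 3.43 to 4.41 with YTHDF2, but by 2.04 to 2.26 with YTHDF1 and by 1.11 to 1.78 with YTHDF3. These ranges of the YTHDF1 and YTHDF3 RIPs lay below Input and did not overlap each other. Rian was at -3.53 to -2.83 relative to Meg3 in Input, -4.20 to -3.92 with YTHDF2 and -3.30 to -2.50 with YTHDF3. In the YTHDF1 RIP it was at -1.65, -1.66 and 0.25, so that Rian exceeded Meg3 per kilobase in YTHDF1 replicate 3 alone of the 12 libraries.

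Kcnq1ot1 relative to Meg3 ranged from -9.60 to -9.16 in Input, from -7.41 to -6.24 with YTHDF1 and from -10.66 to -10.16 with YTHDF3, 3 ranges without overlap. Its YTHDF2 range, -10.04 to -8.35, covered the whole Input range. Mirg, which lies downstream of Meg3 and Rian on the same strand, ranged from -6.97 to -6.39 in Input, -5.81 to -5.09 with YTHDF1, -6.04 to -5.65 with YTHDF2 and -6.75 to -6.08 with YTHDF3, so the YTHDF1 and YTHDF2 ranges lay above Input. For Miat and Neat1 the range of every RIP overlapped Input. Meg3 itself was called lower than Input in the YTHDF1 RIP (log2 fold change -1.58), which raises every ratio to it there. Mirg was at -0.26 in that comparison, which did not pass. These ratios were described without a test. How many of all genes separate between groups by their ratio to Meg3 was not counted.

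**Figure D3:**
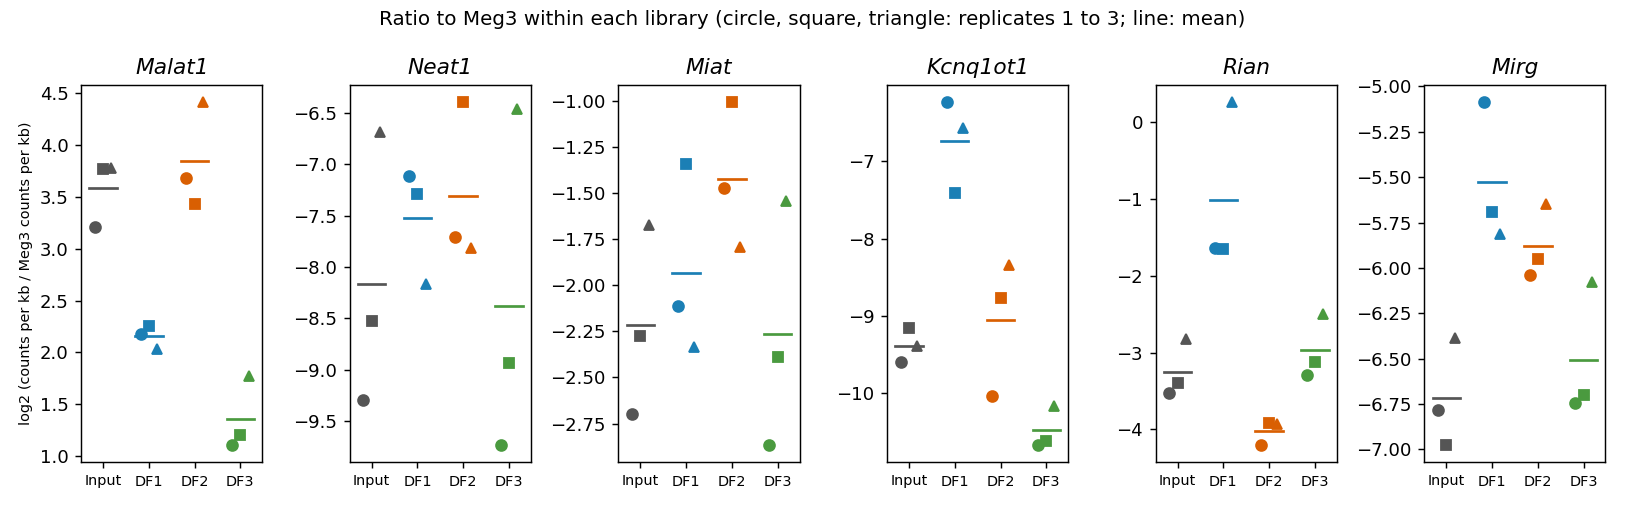
Log2 ratio of counts per kb to Meg3 within each of the 12 libraries, with symbols for replicates 1 to 3 and a line for their mean. The Malat1 ratio is lower in the YTHDF1 and YTHDF3 RIPs than in Input, and the Rian and Kcnq1ot1 ratios are highest in the YTHDF1 RIP, where Meg3 itself is lower than in Input.

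Across the 12 libraries the log2 CPM of Miat, Meg3 and Mirg ran most alike. Pearson's r was 0.92 for Miat with Mirg, 0.92 for Miat with Meg3 and 0.90 for Meg3 with Mirg, and these points share libraries, groups and depth. Among the 10905 genes compared with Mirg, Miat ranked 13 by likeness and Meg3 ranked 39. Rian had an r of 0.22 with Meg3, 0.24 with Mirg and -0.35 with Malat1. Among the genes most like Rian was Ogt, the enzyme that adds O-linked GlcNAc to proteins (r = 0.94). Those most like Neat1 were Mrgbp (r = 0.96) and Lrrc45 (r = 0.94), those most like Mirg were Gm27000 (r = 0.97) and Fam193b (r = 0.96), and those most like Kcnq1ot1 were Gm26917 (r = 0.89) and Ccdc85b (r = 0.87). For Malat1 (Gm27694 and Gm21781), Miat (Gm27998 and Gm27357) and Meg3 (Mir770 and A330023F24Rik) r was between 0.97 and 1.00, but Gm27694, Gm27998, Gm27357 and Mir770 lie in exons of these lncRNAs and their fragments were counted for both.

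Fragments from such small annotated genes also show parts of the lncRNAs. Gm27694, 86 bases of the Malat1 exon, took 4.99 to 5.27% of Malat1 counts in Input and 3.38 to 5.12% in the RIPs. Gm27998, 361 bases of Miat, took 4.11 to 5.07% of Miat counts in Input and 4.26 to 5.91% in the RIPs. Gm24895, a snoRNA in a Rian exon, took 7.02 to 10.7% of Rian counts in Input and 5.03 to 11.8% in the YTHDF1 RIP. The other tested genes in Rian exons, with 0 to 83 counts per library, had negative log2 fold changes against Input with YTHDF1, unlike Rian. Their log2 fold changes were -3.04 for Gm23474 and -6.59 for Gm23508, both called. Those of AF357425 (-0.99), Gm23600 (-0.89) and Gm27350 (-0.36) did not pass.

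The Dlk1-Dio3 interval, from the start of Dlk1 to the end of Dio3 on chromosome 12, held 114 genes besides Meg3, Rian and Mirg, and 22 of them passed the filter, most of them microRNA and snoRNA genes. Between the YTHDF1 and YTHDF2 RIPs 16 of the 22 were lower and 0 higher, where 6.1% and 11.4% of all genes were called. Their median log2 fold change was -2.76, against 0.03 over all genes. Of the 22, 9 share exon bases with Meg3 or Rian on the same strand, and 6 of these were lower. Of the other 13, 10 were lower (median -3.29), among them Gm26906, which shares 1228 exon bases with Meg3 on the opposite strand. Mir341, Mir1188 and Gm24564, also among these 10, lie within Rian on the same strand but outside its exons. Genes of the interval can be parts of the same transcript, so the counts over the 22 are not of independent genes. Against Input, 8 of 22 were higher and 1, the pseudogene Gm3379, was lower with YTHDF2 (median 1.24), where 15.7% and 19% of all genes were. With YTHDF1 8 were lower and 1 higher (median -1.1), where 25.8% and 27.2% of all genes were. With YTHDF3 5 were higher and 2 lower (median 0.91), where 16.4% and 23% of all genes were.

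The 2 microRNA genes with the highest counts of the interval lie in Meg3 exons. Their mature RNAs are shown with the seed (bases 2 to 8) in capitals, beside 2 that lie opposite Rtl1 and were chosen after their values were seen, and no 2 of these 5 seeds are the same.
mmu-miR-1906: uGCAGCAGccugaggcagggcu
mmu-miR-770-5p: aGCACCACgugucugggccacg
mmu-miR-770-3p: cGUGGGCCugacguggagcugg
mmu-miR-431-5p: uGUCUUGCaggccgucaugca
mmu-miR-433-3p: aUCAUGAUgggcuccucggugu
The sequences are from RefSeq (GRCm38.p6). Counts of these genes came from libraries of long RNA, so they are fragments of host or precursor transcripts and not levels of the mature microRNAs. Mir770 had a log2 fold change of -2.69 ± 0.55 between the YTHDF1 and YTHDF2 RIPs (adjusted p = 0.003809) and Mir1906-1 of -2.36 ± 0.55 (adjusted p = 0.008213), beside -2.59 for Meg3. Mir433 was at -4.43 ± 0.56 (adjusted p = 0.0002176) and Mir431 at -3.46 ± 0.50 (adjusted p = 0.0004375). Mir433 had 389 counts and Mir431 146 in total over all libraries. Their means with YTHDF1 were 0.335 and 0.161 normalized CPM, so these fold changes rest on very low counts.

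Rtl1, a retrotransposon-derived coding gene of the paternal allele on the opposite strand, had normalized CPM of 3.65, 5.27 and 3.64 in Input, 2.31, 3.995 and 1.305 with YTHDF1, 25.3, 26.9 and 36.0 with YTHDF2 and 10.8, 6.996 and 10.7 with YTHDF3. The YTHDF2 libraries were above all others and the YTHDF3 libraries came next. Rtl1 rose against Input by 2.80 ± 0.37 on the log2 scale in the YTHDF2 RIP (adjusted p = 0.0004122) and by 1.17 ± 0.35 in the YTHDF3 RIP (adjusted p = 0.02051). Dlk1, Dio3 and Dio3os, at the ends of the interval, had at most 8, 15 and 2 counts in a library and were not tested. Gm24895 was the interval's exception between the YTHDF1 RIP and Input, higher by 0.65 ± 0.25 (adjusted p = 0.04326), next to 0.50 for its host Rian.

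**Figure D4:**
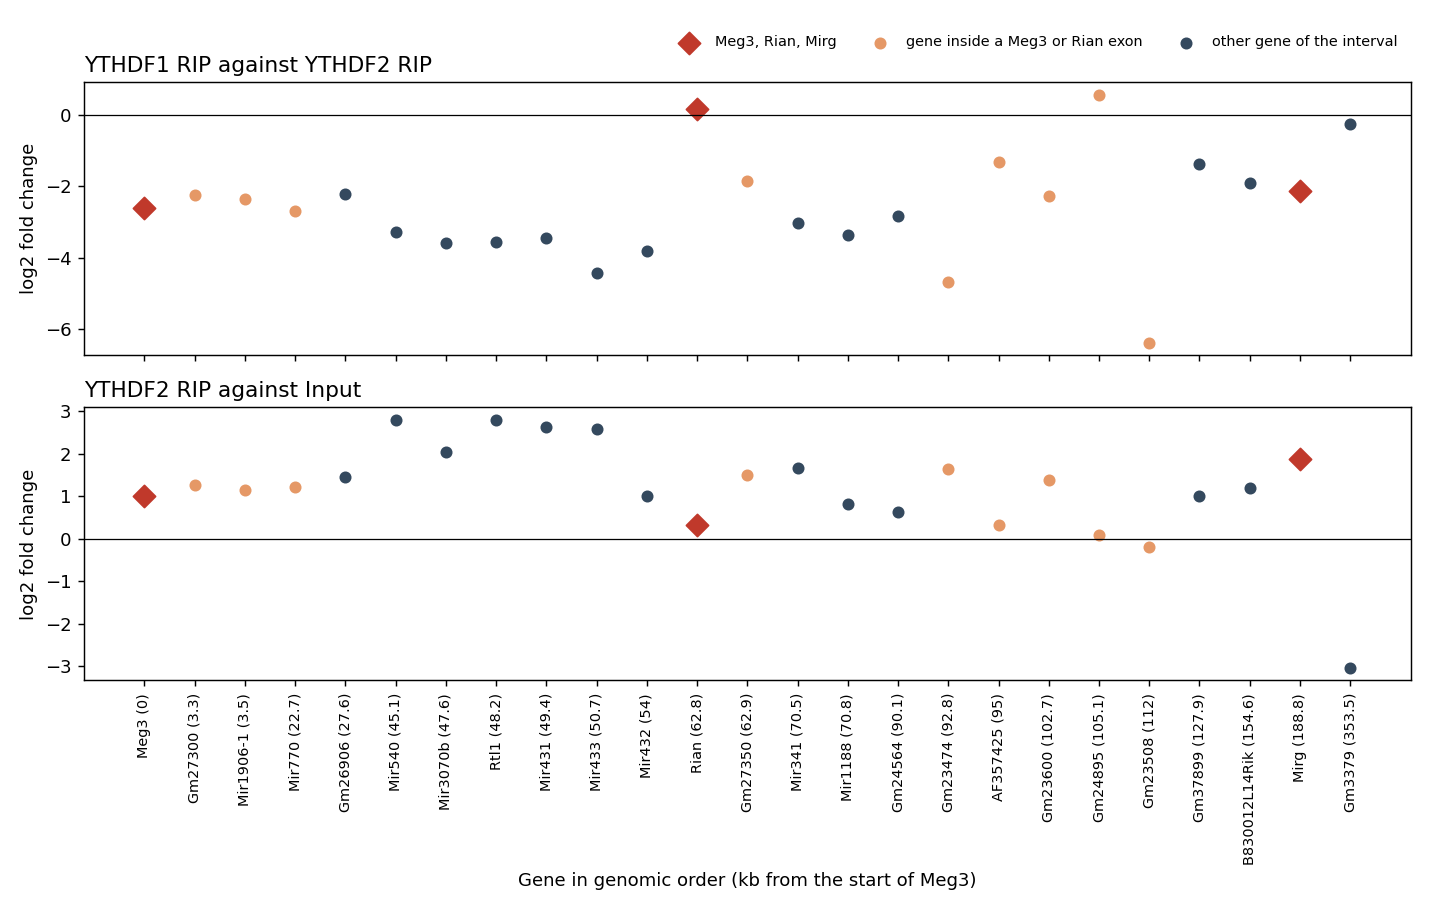
Log2 fold changes of Meg3, Rian, Mirg and the 22 other tested genes of the interval, in genomic order, with the distance in kb from the start of Meg3 in brackets. In the upper panel 16 of the 22 are called lower in the YTHDF1 than in the YTHDF2 RIP, where 6.1% of all genes are. Some of the 22 can be parts of the same transcript. The value of Gm23508 rests on 0 counts in the YTHDF1 RIP and depends on the model's prior count.

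Of 19 tested genes listed as lncRNAs that act in or stay in the nucleus, 4 were lower and 4 higher in the YTHDF1 than in the YTHDF2 RIP (median -0.47). Of all genes, 6.1% were called lower and 11.4% higher. Those lower were Firre, Ftx, Mir124a-1hg and Mir124-2hg, and those higher were Tug1, Snhg14 and 2 genes named Dlx6os1, so the list had no common direction. The Dlx6os1 gene of type misc_RNA had 176 counts in total, and whether it shares counts with the other was not tested. Both are also among those higher than Input with YTHDF1. Tug1 stood at 124 to 144 normalized CPM in Input and 577 to 632 in the YTHDF1 RIP, 2.07 ± 0.16 above the YTHDF2 RIP on the log2 scale (adjusted p = 1.89e-05). Snhg14, an imprinted snoRNA host gene like Rian, stood at 70.2 to 114 in Input and 1463 to 4045 in the YTHDF1 RIP, 4.17 ± 0.40 above the YTHDF2 RIP (adjusted p = 4.58e-05). Against Input 6 of the 19 were higher and 6 lower with YTHDF1 (31.6% each), where 27.2% and 25.8% of all genes were. With YTHDF2 4 were higher (Xist, Peg13, Firre and Mir9-3hg) and 1 lower (Pantr1), where 15.7% and 19% of all genes were. With YTHDF3 1 was higher (Peg13) and 1 lower (Pantr1), where 16.4% and 23% of all genes were.

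Of 12 lncRNAs listed as mainly cytoplasmic, 1 was lower and 3 higher in the YTHDF1 than in the YTHDF2 RIP (median -0.39), where 6.1% and 11.4% of all genes were. Snhg5 was the one lower, and Snhg11, Oip5os1 and Bc1 were higher, of which Snhg11 is described as nuclear in the study's text. Norad stood at 564 to 909.5 normalized CPM in Input and 1884 to 2767 in the YTHDF3 RIP, higher by 1.73 ± 0.28 on the log2 scale (adjusted p = 0.00059). Oip5os1 stood at 330.1 to 500.3 in Input and 162 to 231 in the YTHDF2 RIP, lower by 1.07 ± 0.33 (adjusted p = 0.02761). Among all other lncRNA genes (855), 11.2% were lower and 13.1% higher in the YTHDF1 than in the YTHDF2 RIP, with a median log2 fold change of 0.02, where the 7 described here had a median of -2.59.

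**Figure D5:**
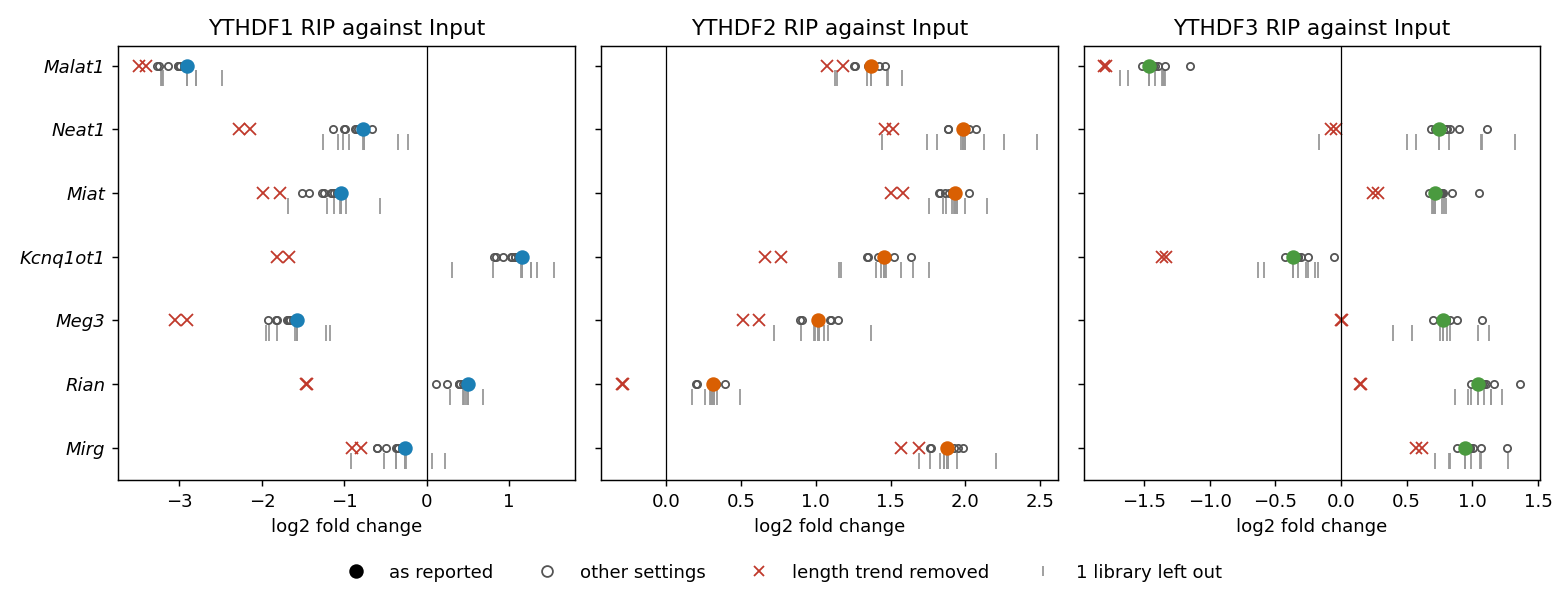
Log2 fold changes of the 7 lncRNAs against Input as reported (filled), in the other fits (open circles), with the length trend removed (crosses) and with 1 library left out (ticks). Removing the length trend turns Kcnq1ot1 from 1.15 to -1.67 and Rian from 0.50 to -1.46 in the YTHDF1 RIP, while Malat1 stays between -3.49 and -2.49.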

How the data were processed

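RNA of 12 libraries was sequenced with unique molecular identifiers. The authors extracted the identifiers (UMI-tools 1.1.1), trimmed reads (cutadapt 3.4), aligned them to mm10 (STAR 2.7.7a), removed duplicates with UMI-tools and counted with featureCounts 2.0.1. The deposited values are raw counts per gene, by strand, with fragments that overlap several genes or map to several places counted for each, so overlapping small genes share counts with their hosts. Input RNA was DNase-treated. The authors' own fold changes and p-values, in other columns of the gene tables, were not used.

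Here 17126 genes with a mean TMM-normalized count of at least 10 were fitted in one model of 4 groups with edgeR 4.0.16 (R 4.3.3, quasi-likelihood F test, Benjamini-Hochberg adjustment over all genes), first tested on simulated data. DESeq2 1.42.0, other scalings and filters, a replicate block, fits of 2 groups, removal of a loess trend on exon length (span 0.3) and leaving out each library were alternatives. The biological coefficient of variation, from a dispersion common to all genes, was 0.323. The methods call the replicates biological but do not say that each was a separate litter, so p-values measure only the spread between these samples, which may be technical.

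Groups came from the labels. The lysate of a replicate was shared by its RIPs and Input, and deviations of same-numbered Input and YTHDF3 libraries correlated at 0.829, 0.528 and 0.804. Other pairs of groups had at least 1 correlation under 0.1, and YTHDF1 with YTHDF2 had 0.059, 0.544 and 0.348. Some unlike numbers deviated together. Input replicate 3 correlated at 0.560 with YTHDF2 replicate 2 and at -0.313 with YTHDF2 replicate 3. YTHDF2 replicate 2 correlated at 0.555 with YTHDF3 replicate 3 and at -0.320 with YTHDF3 replicate 2. The numbers may therefore not pair the YTHDF1 and YTHDF2 libraries with the others. The members and lists were chosen with earlier results of these data known. Besides the members, text names the ends of the interval and Rtl1, its 3 most abundant small RNA genes, the 2 most abundant genes of other lists, genes behind counts of 5 or fewer, and the 2 genes most like each member, of which 1 is not reported here.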

Additional observations from a re-analysis of the deposited data

Results flagged for a closer look

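Differences between the RIP groups that passed the test between them are listed here as values. Between the YTHDF1 and YTHDF2 RIPs the log2 fold change was -4.28 for Malat1, -2.97 for Miat, -2.75 for Neat1, -2.59 for Meg3 and -2.14 for Mirg. Between the YTHDF1 and YTHDF3 RIPs it was -2.35 for Meg3 and -1.76 for Miat. Between the YTHDF2 and YTHDF3 RIPs it was 2.83 for Malat1. All were tested with edgeR in the model of 4 groups, with 3 libraries in each.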

How the results depend on the processing

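With 1 library left out, the counts of the 7 lncRNAs called higher and lower against Input were 0 to 1 and 1 to 3 in the YTHDF1 RIP, 1 to 5 and 0 in the YTHDF2 RIP, and 1 to 3 and 0 to 1 in the YTHDF3 RIP. Of all 17126 genes in these fits, 3683 to 4621 were called higher and 3734 to 5141 lower with YTHDF1. With YTHDF2 all-gene counts were 1909 to 3067 and 2418 to 3862, and with YTHDF3 1970 to 3650 and 2987 to 4133. Between RIPs the counts of the 7 were 0 and 4 to 5 for YTHDF1 against YTHDF2, 0 to 1 and 1 to 3 for YTHDF1 against YTHDF3, 0 to 3 and 0 for YTHDF2 against YTHDF3, and 4 to 7 differed among the RIPs. Of all genes, 1616 to 2097 were higher and 786 to 1966 lower for YTHDF1 against YTHDF2. For YTHDF1 against YTHDF3 all-gene counts were 1188 to 2027 and 484 to 1015. For YTHDF2 against YTHDF3 they were 110 to 968 and 69 to 347, and 3891 to 6681 genes differed among the RIPs.

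In the YTHDF1 RIP against Input, 1 was higher under DESeq2, with no filter or with the replicate block, and 4 were lower with no filter, 6 with the length trend removed and 5 with the block as well. In the YTHDF2 RIP 5 were higher under DESeq2, with no filter or with the block and 6 in the fit of 2 groups, but 2 with TMM over protein-coding genes and in both length fits, without Malat1. In the YTHDF3 RIP 4 were higher with no filter, 3 in the fit of 2 groups, 5 with the block added and 0 in both length fits (7.3%, 22%, 36.3%, 15.2% and 15.1% of all genes), and 0 were lower with scaling by library size. For YTHDF1 against YTHDF2, 7 were lower in both length fits and 5 in the other 9 alternatives. For YTHDF1 against YTHDF3, 1 was higher under DESeq2 or with no filter, and 6 were lower with scaling by library size, 5 with no filter, 4 and 5 in the length fits without and with the block, 1 in the fits of 2 groups, and 3 under DESeq2, with its size factors, with TMM over protein-coding genes or at a minimum mean of 50. For YTHDF2 against YTHDF3, 2 were higher under DESeq2, with no filter or with the length trend removed, and 3 in the fit of 2 groups. Over these alternatives the shares of all genes called higher and lower ran from 10.5 to 29% and 10.3 to 36.3% for YTHDF1 against Input, 4.58 to 19.6% and 8.2 to 22.1% for YTHDF2, 7.3 to 36.3% and 8.53 to 32.2% for YTHDF3, 5.4 to 11.5% and 2.86 to 16.3% for YTHDF1 against YTHDF2, 1.85 to 10.9% and 0.596 to 20.1% for YTHDF1 against YTHDF3, and 1.72 to 5.65% and 0.578 to 4.19% for YTHDF2 against YTHDF3.

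Log2 fold changes that reversed with the length trend removed, without and with the block, were those of Kcnq1ot1 (-1.67 and -1.82) and Rian (-1.46 in both) for YTHDF1 against Input, Rian (-0.30 and -0.29) for YTHDF2 against Input, Neat1 (-0.03 and -0.07) for YTHDF3 against Input, Rian (-1.16 and -1.18) for YTHDF1 against YTHDF2, and Kcnq1ot1 (-0.31 and -0.49) for YTHDF1 against YTHDF3. Scaling by library size turned Rian for YTHDF1 against YTHDF2 to -0.28, where the median of all genes was -0.44. With a library left out, Mirg ranged from -0.92 to 0.22 for YTHDF1 against Input and was above 0 without Input replicate 1 (0.06) or YTHDF1 replicate 3 (0.22), Neat1 ranged from -0.17 (YTHDF3 replicate 3) to 1.32 for YTHDF3 against Input, Kcnq1ot1 from -1.15 to 0.09 (YTHDF1 replicate 3) for YTHDF1 against YTHDF2, and Meg3 from -0.02 (YTHDF3 replicate 3) to 0.62 for YTHDF2 against YTHDF3. The cause was not tested. Of 525 values from fits that kept all libraries, 442 kept direction and call, as did 527 of 588 with a library left out. Low counts limit Neat1, Mirg and Kcnq1ot1.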

Other observations

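Norad, the cytoplasmic lncRNA that binds Pumilio proteins, was also higher than Input in the YTHDF2 RIP, by 0.79 ± 0.27 on the log2 scale (edgeR, adjusted p = 0.04355). Oip5os1 (Cyrano) differed in direction between RIPs, with 1.00 ± 0.33 against Input in the YTHDF3 RIP (adjusted p = 0.03253), -1.07 ± 0.33 in the YTHDF2 RIP and a difference between these RIPs that passed the test (-2.07, adjusted p = 0.007849).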
